A study of Homo sapiens with 47 samples.

Results

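Acetylation of histone H3 at lysine 27 (H3K27ac) was compared between melanoma cells of the line 451Lu made resistant to vemurafenib and cells of the line WM983B made resistant to the same drug. Each group had 1 H3K27ac ChIP-seq peak list, so the comparison used 2 of the 47 samples of the series. The longer list was cut to the length of the shorter by the authors' peak score, touching or overlapping peaks of both lists were joined into regions, and each region was then 451Lu-only, WM983B-only or shared. It was set beside the same comparison of parental 451Lu with parental WM983B, the cells without resistance, also with 1 list each. Of 8 H3K27ac samples in the series, 4 had a file used here. The 451Lu files carry replicate number 1 and the WM983B files number 2. Both resistant groups differ from their parental group by label only in resistance to vemurafenib, and all 4 groups are established melanoma cell lines with no further genetic change in the labels. No source used here gives the drug dose, the time under drug or whether a resistant line grew from 1 clone or from a pool. Open chromatin came from ATAC-seq in 12 libraries, 2 each of resistant 451Lu, parental 451Lu, resistant WM983B and parental WM983B, and of 451Lu cells labelled shp150_AP1 and vector_NT. The label shp150_AP1 stands for a short hairpin RNA against p150 together with over-expression of AP-1 subunits, and vector_NT for its control. Heterochromatin came from H3K9me3 ChIP-seq in 4 libraries, 2 each of resistant and parental 451Lu.

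Vemurafenib blocks the mutant BRAF kinase that drives growth signalling in many melanomas, and cells kept in its presence can become resistant. H3K27ac is written by the acetyltransferases p300 and CBP, removed by histone deacetylases, and found on nucleosomes beside active promoters and enhancers. The DNA between such nucleosomes is often free of them and is cut by the transposase Tn5 in ATAC-seq, so an H3K27ac peak may lie next to an open region and not on it. Strong promoters that all cells use carry the mark in most cell types, whereas enhancers differ between cell types and cell states. H3K9me3 marks heterochromatin that is mostly silent. In a bulk library, fewer cells with the mark and less of the mark per cell cannot be told apart.

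The files gave peaks, not reads, so sequencing depth is unknown here. On chromosomes 1 to 22 and X there were 51710 peaks in resistant 451Lu and 36022 in resistant WM983B, against 32304 in parental 451Lu and 50336 in parental WM983B. These peaks covered 21.8 Mb in resistant 451Lu, 15.5 Mb in resistant WM983B, 13.7 Mb in parental 451Lu and 20.8 Mb in parental WM983B. The resistant file held more peaks than its parental file in 451Lu and fewer in WM983B. The lowest score was 1.44 in resistant 451Lu, 1.81 in resistant WM983B, 1.89 in parental 451Lu and 1.39 in parental WM983B, and the highest lay between 318 and 376. To set lists of equal length side by side, 15688 peaks of resistant 451Lu and 18032 of parental WM983B were left out. At these limits the last peak kept and the next peak had the same score to 3 digits, 5.48 in resistant 451Lu and 5.39 in parental WM983B. With 1 library a group, no difference between lines or states has a replicate check and no p-value was computed. Intervals are exact binomial 95% intervals. They cover nothing but counting error and take adjacent regions as independent.

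The line labels of the 4 H3K27ac files were set against open chromatin before the lines were compared. Of 203084 open regions over the 8 ATAC-seq libraries of resistant and parental cells, 4761 were open in all 4 451Lu libraries and in no WM983B library, 12801 in all 4 WM983B libraries and in no 451Lu library, and 46145 in all 8. With every H3K27ac list cut to 32304 peaks, a peak overlapped 3.76% of the open regions particular to 451Lu in resistant 451Lu (95% interval 3.24 to 4.34) and 8.55% in parental 451Lu (7.77 to 9.38). At the same regions the share was 0.756% in resistant WM983B (0.530 to 1.05) and 1.91% in parental WM983B (1.54 to 2.34). At open regions particular to WM983B, the share was 2.80% in resistant 451Lu (2.52 to 3.10) and 1.53% in parental 451Lu (1.33 to 1.76), and 6.07% in resistant WM983B (5.66 to 6.50) and 5.11% in parental WM983B (4.734 to 5.505). By overlap, each file thus marked the open regions of its labelled line at a higher rate than the open regions of the other line. Counting peaks within 500 bp, the order turned in resistant 451Lu, with 7.25% at regions particular to 451Lu and 7.56% at regions particular to WM983B, against 14.8% and 3.23% in parental 451Lu. It held in resistant WM983B, with 2.12% at regions particular to 451Lu and 15.4% at regions particular to WM983B, against 3.84% and 12.4% in parental WM983B. The gap was smallest in resistant 451Lu, which marked fewer open regions particular to 451Lu than parental 451Lu did, also with its full list (5.21%). At regions open in all 8 libraries the 4 files lay close together, between 24.6% and 25.7%. The spread of peaks over chromosomes placed each file nearest its own line. Summed over 23 chromosomes, the shares of peaks of resistant 451Lu differed from those of parental 451Lu by 9.09 percentage points, from those of resistant WM983B by 12.9 and from those of parental WM983B by 17.4. Since resistant 451Lu has 1 library, no value without it can be given. Whether that library was mixed with other chromatin or mislabelled was not tested beyond these values, and each likeness below rests on its label. The names of the WM983B H3K27ac files carry a code that the labels do not explain, and the files were taken as GEO assigns them.

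**Figure D1:**
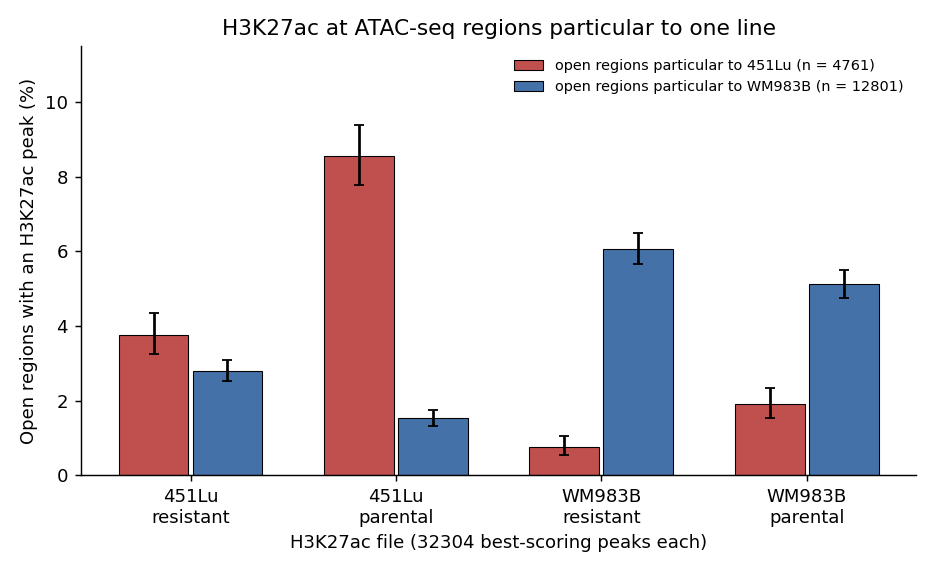
Share of ATAC-seq regions particular to 451Lu (red, 4761 regions) or to WM983B (blue, 12801 regions) that a peak of each H3K27ac file overlaps, in percent, with exact binomial 95% intervals as bars. By overlap the own-line share is the higher one in each file, with 3.76% against 2.80% in resistant 451Lu and 8.55% against 1.53% in parental 451Lu, whereas within 500 bp resistant 451Lu has 7.25% against 7.56%.

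The resistant lists of 36022 peaks each joined into 51069 regions, of which 20379 were shared, 39.9% of all regions (95% interval 39.5 to 40.3). Of the rest, 15471 were 451Lu-only, 30.3% of all regions, and 15219 were WM983B-only, 29.8%. The parental lists of 32304 peaks each joined into 48041 regions, of which 16227 were shared, 33.8% (33.4 to 34.2). Of these parental regions 15868 were 451Lu-only, 33.0%, and 15946 were WM983B-only, 33.2%. The shared part was thus 6.13 percentage points larger in the resistant pair than in the parental pair. By peaks, 57.1% of the resistant 451Lu peaks and 57.7% of the resistant WM983B peaks overlapped a peak of the other resistant line, against 50.9% of the parental 451Lu peaks and 50.6% of the parental WM983B peaks overlapping the other parental line. By bases, the Jaccard index, the bases covered in both lists over the bases covered in either, was 0.389 in the resistant pair and 0.328 in the parental pair. The direction of this difference was the same at every list length and score limit tried.

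Shared regions were wider and stronger than line-only regions. Their median width was 510 bp, against 351 bp for 451Lu-only and 323 bp for WM983B-only regions, and together they spanned 11.9 Mb, against 5.86 Mb and 5.42 Mb. The median score of shared regions was 15.3 in resistant 451Lu and 11.4 in resistant WM983B. Line-only regions had a median score of 7.86 (451Lu-only, in resistant 451Lu) and 5.76 (WM983B-only, in resistant WM983B). Across the 20379 shared regions, the scores of the lines had a Spearman correlation of 0.61, given as a description since regions share the library and its input. The cut touched the lines unequally. Of the WM983B-only regions, 2680 (17.6%) were overlapped by one of the 451Lu peaks that the cut left out, whereas no 451Lu-only region could be, since the WM983B list was used whole.

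Sharing followed the score from the top of the list to its end. When each list was split into 10 deciles by score, then in decile 1, the best-scoring one, 96.0% of resistant 451Lu peaks and 96.4% of resistant WM983B peaks were overlapped by the other resistant line, against 95.8% of parental 451Lu peaks and 90.4% of parental WM983B peaks by the other parental line. In decile 5 the shares were 60.9% and 58.7% in resistant 451Lu and resistant WM983B, against 51.1% and 50.03% in parental 451Lu and parental WM983B. In decile 10 they were 23.3% and 24.5% in the resistant files, against 17.3% and 21.7% in the parental ones. In each decile both resistant files thus lay above both parental files, in decile 1 by a narrow margin from parental 451Lu, with resistant lists of 36022 and parental lists of 32304 peaks. The strongest peaks of either line were almost all peaks of the other line too, and line-only regions came mostly from the weaker part of each list.

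**Figure D2:**
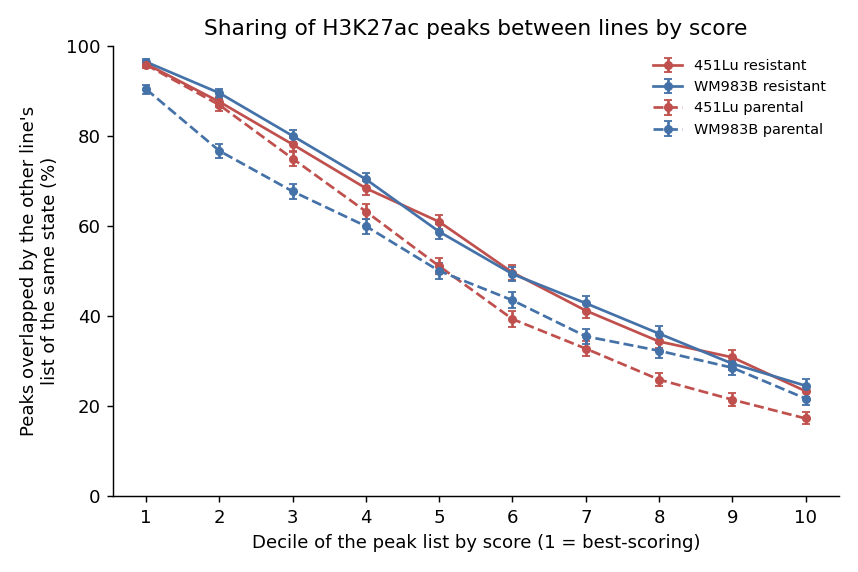
Share of the peaks in each decile of a list, by score from the best (1) to the weakest (10), that the other line's list of the same state overlaps, in percent with exact binomial 95% intervals. Solid lines are resistant and dashed lines parental files, and the share goes from 96.0% in decile 1 to 23.3% in decile 10 of resistant 451Lu.

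With all 4 lists cut to 32304 peaks, the resistant pair had the highest Jaccard index of the 6 pairs of files, 0.400. The resistant and parental files of WM983B had 0.374, those of 451Lu 0.331, and the parental pair 0.328. Resistant 451Lu with parental WM983B had 0.320, and resistant WM983B with parental 451Lu had 0.278. The file labelled resistant 451Lu thus shared more acetylated bases with resistant WM983B than with its own parental line, with the doubt on that library given above. The resistant pair was also first with full lists (0.356, against 0.338 for the next pair, resistant and parental WM983B) and with the best 2000 peaks (0.437, against 0.405 for the next pair, resistant and parental 451Lu). The order of the other pairs depended on list length.

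Open chromatin grouped the libraries in another way. With ATAC-seq lists cut to 82621 peaks, the 4 pairs of a resistant 451Lu and a resistant WM983B library had Jaccard indices of 0.360 to 0.377, and the 4 parental pairs across lines had 0.306 to 0.349. The ranges did not overlap, and the means were 0.368 for the resistant and 0.328 for the parental pairs, which share libraries and so are not independent. The 8 mixed pairs across lines had 0.336 to 0.357. Within a line, resistant and parental libraries had 0.628 to 0.641 in 451Lu and 0.526 to 0.646 in WM983B, above every pair across lines. Replicates of 1 group had 0.725 to 0.727 in 451Lu and 0.531 to 0.535 in WM983B, where a replicate was thus no closer to its group than some libraries of the other state. The WM983B libraries of number 1 were alike across states, as were those of number 2, so values are given for each library. In ATAC-seq the line went with the closest pairs. In H3K27ac the closest pair was the resistant one across lines, and the next, with 32304 peaks, were the pairs within a line (0.374 and 0.331).

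**Figure D3:**
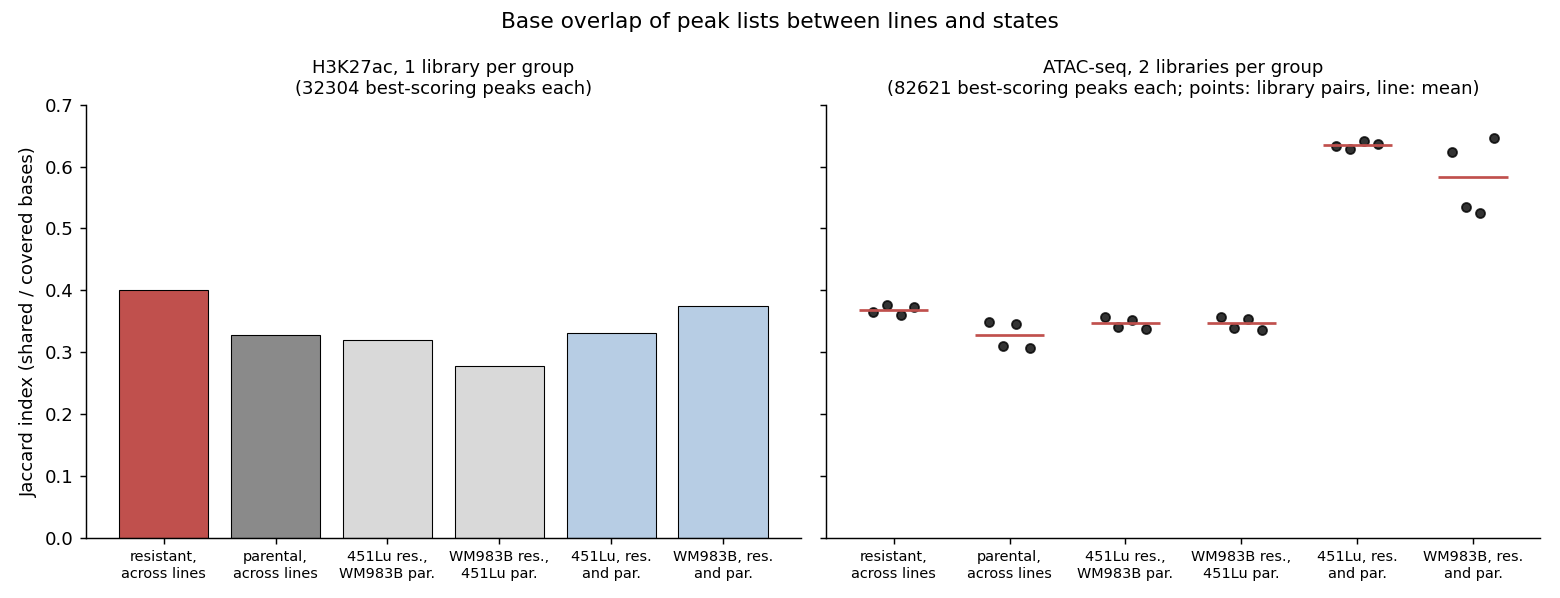
Jaccard index of peak lists (bases in both lists over bases in either) for the 6 combinations of line and state, for H3K27ac with 1 library a group as bars and for ATAC-seq with points for the 4 pairs of libraries and a line at their mean. The resistant pair across lines has the tallest H3K27ac bar, 0.400, whereas in ATAC-seq the pairs within a line lie highest, up to 0.646.

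Most line-only regions of the resistant cells had no peak in the full list of either parental line, and most shared regions had one in both. Of the 15471 451Lu-only regions, 27.9% were marked in parental 451Lu and 24.9% in parental WM983B, and 9350 (60.4%, 95% interval 59.7 to 61.2) in neither. Of the 15219 WM983B-only regions, 42.5% were marked in parental WM983B and 14.0% in parental 451Lu, and 8253 (54.2%, 53.4 to 55.0) in neither. Of the 20379 shared regions, 62.2% were marked in parental 451Lu and 77.7% in parental WM983B, 56.8% in both, and 3461 (17.0%, 16.5 to 17.5) in neither. The list of parental WM983B is the longer one. With parental lists of equal length, 27.9% of 451Lu-only regions were marked in parental 451Lu and 31.7% of WM983B-only regions in parental WM983B. With the best 2000 peaks of each list the order turned, with 36.7% of 451Lu-only and 32.2% of WM983B-only regions marked in their own parental line. These shares are not the same measure. Line-only then means outside the best 2000 peaks of the other line, and marked means within the best 2000 of the parental line. With parental lists of equal length, 17.2% of 451Lu-only regions were marked in parental WM983B and 14.0% of WM983B-only regions in parental 451Lu, and the share marked in neither parental file was 65.0% of 451Lu-only, 63.6% of WM983B-only and 21.2% of shared regions.

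**Figure D4:**
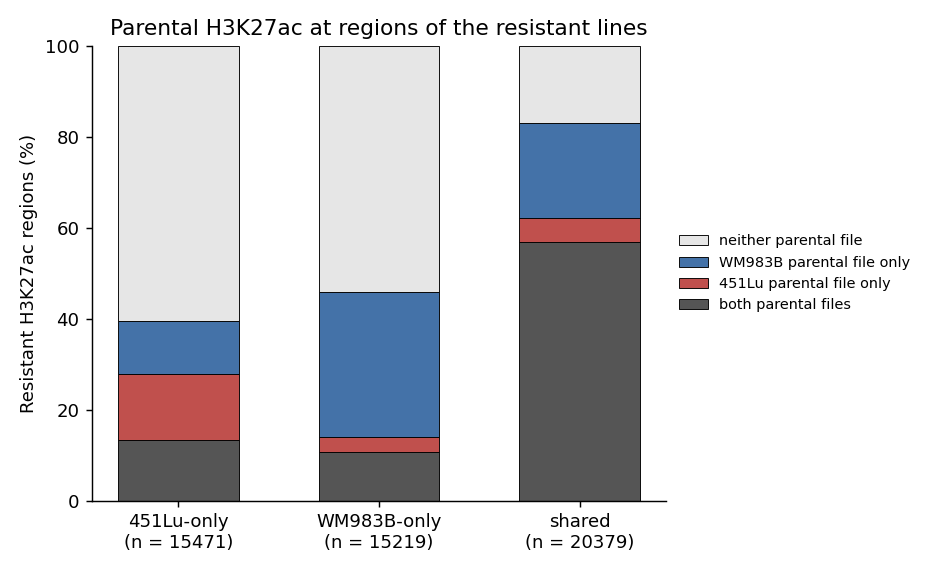
Share of 451Lu-only, WM983B-only and shared regions of the resistant cells, in percent, by which parental H3K27ac file (full lists) also has a peak there. Regions in neither parental file make up 60.4% of 451Lu-only, 54.2% of WM983B-only and 17.0% of shared regions.

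The best-scoring line-only regions were more often marked in their own parental line. Among the 100 best 451Lu-only regions, 68 were marked in parental 451Lu, 36 in parental WM983B and 30 in neither. Among the 100 best WM983B-only regions that the full resistant 451Lu list also lacked, 90 were marked in parental WM983B, 17 in parental 451Lu and 9 in neither.

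Seen from the parental cells, a region marked in 1 parental line was most often in neither resistant list of equal length. This view used 67233 regions made from all 4 lists of 32304 peaks. Peaks of the resistant files that this cut left out count as missing here. Of 15658 regions marked in parental 451Lu and not in parental WM983B, 69.3% were in neither resistant file, 16.2% in resistant 451Lu alone, 10.5% in both and 4.05% in resistant WM983B alone. Of 15817 regions marked in parental WM983B and not in parental 451Lu, 53.8% were in neither resistant file, 20.3% in resistant WM983B alone, 19.7% in both and 6.32% in resistant 451Lu alone. Regions particular to parental WM983B were thus found in a resistant file more often than those particular to parental 451Lu. Of 16188 regions marked in both parental lines, 64.3% were in both resistant files and 17.3% in neither. Of 19570 regions marked in neither parental line, 3598 (18.4%) were in both resistant files. By the way regions were made, each of these 19570 was in at least 1 resistant list, so this share has another base than those above.

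The strongest regions of the resistant lines are given by their position in the genome build hg19. Regions were not assigned to genes, since no annotation of hg19 was used here. The 5 shared regions with the best ranks in both lists had scores between 253 and 376, near the top of the scale. The region chr22:36424157-36425000 ranked 1 in resistant 451Lu (score 376) and 2 in resistant WM983B (289), and had scores of 345 in parental 451Lu and 272 in parental WM983B. The region chr17:56064603-56066010, the widest of the 5 with 1408 bp, had scores of 332 in resistant 451Lu, 287 in resistant WM983B, 263 in parental 451Lu and 279 in parental WM983B. Both regions were open in all 8 ATAC-seq libraries and strong in all 4 files. The same held for chr1:154530645-154531207, with scores of 328 and 284 in resistant 451Lu and resistant WM983B and of 260 and 340 in parental 451Lu and parental WM983B. It also held for chr19:6424008-6424831, with 321 and 253 in resistant 451Lu and resistant WM983B and 348 and 256 in parental 451Lu and parental WM983B. The region chr2:232479217-232479923 differed from these in openness. Its score was 308 in resistant 451Lu, 318 in resistant WM983B, 81.5 in parental 451Lu and 275 in parental WM983B. It was open in all 4 WM983B libraries and in none of the 4 451Lu libraries, in resistant 451Lu included.

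The best-scoring 451Lu-only region was chr3:64149643-64150206. It had a score of 164 in resistant 451Lu and no peak in resistant WM983B, a score of 60.3 in parental 451Lu and one of 4.66 in parental WM983B. It was open in all 4 451Lu libraries and in 1 of the 2 libraries of parental WM983B. The second, chr17:77784872-77785307, had 114 in resistant 451Lu and 22.6 in parental 451Lu, and the third, chr11:70508295-70509340, had 93.1 in resistant 451Lu and 9.42 in parental 451Lu, both with no peak in either WM983B file. Of these, the chromosome 17 region was open in no library and the chromosome 11 region in all 4 451Lu libraries and no WM983B library. The fourth, chr3:39219004-39219475, had 83.1 in resistant 451Lu, 67.5 in parental 451Lu and 7.55 in parental WM983B. The fifth, chr16:542156-542686, had 81.0 in resistant 451Lu, 88.2 in parental 451Lu and 16.0 in parental WM983B. All 5 were already marked in parental 451Lu, and 3 of them also carried a peak in parental WM983B that resistant WM983B lacked.

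The best-scoring WM983B-only region was chr7:107642359-107642872, with a score of 124 in resistant WM983B, 91.2 in parental WM983B and no peak in either 451Lu file. The second, chr3:48129027-48129465, had 98.9 in resistant WM983B, 41.8 in parental WM983B and 7.97 in parental 451Lu. The third, chr5:10590479-10590951, had 94.2 in resistant WM983B and 77.6 in parental WM983B. Chromatin at the chromosome 3 and chromosome 5 regions was open in all 8 libraries of both lines, although resistant 451Lu had no H3K27ac peak there. The fourth, chr2:159992317-159992748, had 78.8 in resistant WM983B and 61.1 in parental WM983B, and the fifth, chr1:41848130-41848701, had 72.5 in resistant WM983B and 20.9 in parental WM983B. The chromosome 1 region was open in all 4 WM983B libraries and in no 451Lu library. The best region, on chromosome 7, was open in 3 of 4 451Lu libraries and in 1 of 4 WM983B libraries. All 5 were marked in parental WM983B, and 1 of them in parental 451Lu.

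Regions found in 1 resistant file and in none of the 3 other files scored lower within that file. In resistant 451Lu alone there were 9350, led by chr5:14264754-14265216 (score 70.3), chr3:72396026-72396538 (68.6) and chr3:61561147-61561797 (63.7). The leading chromosome 5 region was open in all 4 WM983B libraries and in no 451Lu library. In resistant WM983B alone there were 7148, led by chr6:12538145-12538952 (48.1), chr4:61082822-61083303 (42.4) and chr7:27106106-27106594 (40.1). The first pair of these was open in no library of either line. The 3461 regions marked in both resistant and in neither parental line were led by chr5:168843-169461, with scores of 55.8 in resistant 451Lu and 42.4 in resistant WM983B. Next came chr1:7360290-7360871 with 80.8 and 38.4, and chr22:25381227-25381916 with 71.2 and 37.8. The median width of these 3461 regions was 443 bp and their median score 10.03 in resistant 451Lu and 7.01 in resistant WM983B, against a width of 561 bp and scores of 20.8 and 15.0 for the 11584 regions marked in all 4 files. Acetylation common to the resistant lines and new to both was therefore of middling strength.

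Shared regions lay on open chromatin more often than line-only regions, in every library. As background, the share of all 51069 regions with an ATAC-seq peak was 34.1% and 34.9% in the libraries of resistant 451Lu and 32.8% and 33.0% in those of parental 451Lu. It was 28.9% and 32.9% in resistant WM983B and 28.4% and 30.7% in parental WM983B. Of shared regions, 54.7% and 55.7% were open in resistant 451Lu and 47.4% and 52.8% in resistant WM983B. Of 451Lu-only regions, 18.5% and 19.1% were open in resistant 451Lu and 11.9% and 13.7% in resistant WM983B. Of WM983B-only regions, 22.4% and 23.1% were open in resistant 451Lu and 21.6% and 25.8% in resistant WM983B. ATAC-seq lists of the lines differ in length and in lowest score, so levels are compared across region classes within a library. Within each of the 4 libraries WM983B-only regions were open more often than 451Lu-only ones, with a wider gap in resistant WM983B than in resistant 451Lu. Within 500 bp, 42.7% and 43.6% of 451Lu-only regions had a peak in resistant 451Lu and 36.1% and 41.7% in resistant WM983B. For WM983B-only regions these were 44.0% and 45.0% in resistant 451Lu and 55.9% and 63.7% in resistant WM983B, and for all regions 56.7% and 57.7% in resistant 451Lu and 59.0% and 64.9% in resistant WM983B. With this window WM983B-only regions came near the level of all regions in their own line and stayed below it in resistant 451Lu. Without the window, shorter H3K27ac lists turned the order in library 1 of resistant 451Lu. There 41.8% of 451Lu-only and 39.5% of WM983B-only regions were open with the best 10000 peaks, and 71.3% and 64.3% with the best 2000. In library 2 of resistant WM983B the order held, with 66.0% and 71.5% at 2000 peaks. Line-only regions of shorter lists may have a weaker peak in the other line, so they are not the same classes as above.

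Regions were also classed by all 4 resistant libraries at once. Open in both resistant 451Lu libraries and in neither resistant WM983B library were 4.87% of 451Lu-only, 2.45% of WM983B-only and 4.87% of shared regions. The reverse pattern held for 0.814% of 451Lu-only, 3.16% of WM983B-only and 1.97% of shared regions. No ATAC-seq peak in any of the 4 resistant libraries was found at 76.9% of 451Lu-only, 67.5% of WM983B-only and 37.1% of shared regions. Over all line-only regions, differences in acetylation between the lines were thus mostly found where neither line had an ATAC-seq peak under the region itself. Shorter lists cannot show whether this holds for the strongest peaks. A line-only region then lies outside the shortened list of the other line and may still have a peak in its longer list. In decile 1 of the lists of 36022 peaks, the other resistant line overlapped 96.0% of 451Lu and 96.4% of WM983B peaks. With the best 2000 peaks of each list, 71.3% of 451Lu-only regions were open in library 1 of resistant 451Lu. Of WM983B-only regions, 71.5% were then open in library 2 of resistant WM983B. With the best 10000 peaks these shares were 41.8% and 45.2%.

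The regions marked in resistant 451Lu alone were more often open in resistant than in parental 451Lu, and so were those marked in resistant WM983B alone. A peak overlapped 12.8% and 13.5% of the 9350 in the resistant 451Lu libraries, against 10.3% and 10.6% in the parental 451Lu libraries. Within 500 bp the shares were 35.3% and 36.3% in resistant 451Lu, against 25.3% and 24.97% in parental 451Lu. In 451Lu cells labelled shp150_AP1, 29.8% and 30.7% had an ATAC-seq peak within 500 bp, against 25.7% and 24.4% in vector_NT cells. Both resistant libraries lay above both parental ones, and both shp150_AP1 libraries above both vector_NT ones. These lists differ in length, and over all 51069 regions the share within 500 bp was 56.7% and 57.7% in resistant 451Lu against 51.7% and 51.6% in parental 451Lu, and 53.3% and 54.3% in shp150_AP1 against 51.8% and 50.7% in vector_NT. The 7148 regions marked in resistant WM983B alone had a peak within 500 bp at 32.7% and 33.2% in resistant 451Lu, against 26.9% and 26.9% in parental 451Lu. The gain was thus seen at regions without H3K27ac in 451Lu too, where in percentage points it was near the gain over all 51069 regions. In the WM983B libraries these 7148 regions had 43.1% in resistant against 42.1% in parental WM983B for number 1, and 55.3% against 53.2% for number 2. Over all regions the same libraries had 59.0% against 58.5% and 64.9% against 63.6%.

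At the 3461 regions new to both resistant lines, 31.6% and 32.7% were open in resistant 451Lu, against 25.3% and 25.5% in parental 451Lu. Within 500 bp these were 61.3% and 63.2% in resistant 451Lu, against 46.1% and 45.8% in parental 451Lu. Both resistant 451Lu libraries lay above both parental ones, and by more than over all regions. In WM983B, whose libraries were alike by number, 23.7% were open in resistant WM983B against 23.6% in parental WM983B for number 1, and 33.2% against 29.96% for number 2. Within 500 bp these were 62.8% against 62.4% for number 1 and 77.9% against 75.8% for number 2. Over all regions within 500 bp the same libraries had 59.0% against 58.5% and 64.9% against 63.6%.

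Line-only regions were not spread evenly over the genome. The number of 451Lu-only over WM983B-only regions went from 0.291 on chromosome 18 (139 451Lu-only and 477 WM983B-only regions) to 3.04 on chromosome 21 (328 and 108). It was also low on chromosome 9 (360 and 758) and chromosome 7 (700 and 1441), and high on chromosome 22 (568 and 283) and chromosome 16 (516 and 297). The parental pair lay on the same side of an even count as the resistant pair on 17 of 23 chromosomes, the exceptions being chromosomes 2, 4, 10, 13, 14 and 15. The parental pair had 128 and 490 regions on chromosome 18, a ratio of 0.261, and 376 and 188 on chromosome 21. The excess of a line on a chromosome was thus mostly common to resistant and parental cells.

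Most bins of 1 Mb were near balance, and a few on chromosome 3 were far from it. Of 2772 bins, 2022 (72.9%) had 451Lu-only and WM983B-only counts within 5 of each other. The largest excess of 451Lu-only regions lay on chromosome 3 in the bins starting at 61000001 (80 451Lu-only and 0 WM983B-only regions), 71000001 (86 and 6) and 64000001 (82 and 3). Parental 451Lu had 109, 81 and 86 regions there that parental WM983B lacked, so the excess was present in parental cells too. The largest excess of WM983B-only regions lay on chromosome 3 in the bin starting at 58000001 (3 451Lu-only and 50 WM983B-only regions), on chromosome 7 at 47000001 (10 and 38) and on chromosome 3 at 59000001 (1 and 27). Neighbouring stretches of chromosome 3 thus favoured different lines.

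Line-only regions were joined into domains across gaps up to the default stitching distance of the ROSE method, which was made to find clusters of enhancers. The widest 451Lu-only domain was chr3:71288397-71371144, 82.7 kb with 12 regions, which held 15 peaks in resistant 451Lu, 2 in resistant WM983B, 11 in parental 451Lu and 6 in parental WM983B. Next came chr3:64346800-64415007, 68.2 kb, with 10 peaks in resistant 451Lu, 0 in resistant WM983B, 11 in parental 451Lu and 2 in parental WM983B. The third was chr3:61780984-61846447, 65.5 kb, with 15, 0, 8 and 1 peaks in the same files. All 3 lie in the 3 bins named above. The widest WM983B-only domain was chr10:111818935-111858754, 39.8 kb, with 0 peaks in resistant 451Lu, 6 in resistant WM983B, 0 in parental 451Lu and 2 in parental WM983B. It was followed by chr5:135348678-135387138, 38.5 kb, and chr7:4753382-4788670, 35.3 kb, where resistant 451Lu had 3 and 2 peaks and resistant WM983B 6 and 9. Domains of at least 5 regions numbered 75 among 12430 in 451Lu and 30 among 12580 in WM983B.

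The amount of input DNA in 451Lu moved with these counts. Input reads of the 451Lu H3K9me3 experiment, per kb of island and relative to the median bin, were used as a measure of DNA amount in 2165 bins with values in all 4 libraries. In the 3 bins of chromosome 3 with most 451Lu-only regions the input was 5.05 to 5.71 (61000001), 5.31 to 5.47 (71000001) and 5.60 to 5.94 (64000001) times the median over the 4 libraries, resistant and parental. In the WM983B bins, those on chromosome 3 with a value in 3 libraries, it was 0.713 to 0.839 (58000001 on chromosome 3), 0.811 to 0.865 (59000001 on chromosome 3) and 1.15 to 1.34 (47000001 on chromosome 7). Of the 74 large 451Lu-only domains with an input value, 46 lay in bins with more than 3 times the median input, against 0 of the 24 large WM983B-only domains with one. Input was also high on chromosomes 22 (chromosome medians of 1.85 to 1.92), 20 (1.78 to 1.86) and 21 (1.42 to 1.46), and low on chromosomes 9 (0.791 to 0.812) and 18 (0.751 to 0.829). Chromosome 17, with 981 451Lu-only and 574 WM983B-only regions, also had high input, 1.45 to 1.48. Chromosome 8, with 939 and 791, had 1.29 to 1.51. Some other chromosomes did not follow the input. Chromosome 7, with an excess of WM983B-only regions, had 1.08 to 1.13, and chromosomes 16 and 11, with an excess of 451Lu-only regions, had 0.809 to 0.970 and 0.789 to 0.848. Chromosome 10, with 537 451Lu-only and 535 WM983B-only regions, had 0.762 to 0.793. The best 451Lu-only region on chromosome 3 and the third on chromosome 11 lay in bins with 5.60 to 5.94 and 2.79 to 3.30 times the median. Of the leading regions marked in resistant 451Lu alone, both on chromosome 3 lay in such bins, chr3:72396026-72396538 with 5.08 to 5.99 and chr3:61561147-61561797 with 5.05 to 5.71 times the median. Among the 100 best line-only regions, 39 of the 92 451Lu-only ones with an input value lay above 1.5 times the median, against 9 of the 79 WM983B-only ones. Input of WM983B was not analysed here.

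Across bins grouped by this input, the ratio of 451Lu-only to WM983B-only regions went up with the input in resistant and in parental cells alike. In the resistant pair it was 0.764 at 0.67 to 0.9 times the median (616 bins), 0.916 at 0.9 to 1.1 (711 bins), 1.097 at 1.1 to 1.5 (602 bins), 1.69 at 1.5 to 3 (196 bins) and 9.42 above 3 (25 bins, with 1121 451Lu-only and 119 WM983B-only regions). The parental pair had 0.611, 0.794, 1.25, 1.88 and 10.1 in the same groups. The 15 bins below 0.67 times the median, with 55 451Lu-only and 28 WM983B-only regions, did not follow this order. Bins above 1.5 times the median held 26.3% of 451Lu-only, 12.8% of WM983B-only and 17.4% of shared regions with an input value. When counts were taken from bins at 0.67 to 1.5 times the median alone, chromosome 3 turned from an excess of 451Lu-only regions (1620 and 1272) to an excess of WM983B-only regions (374 and 633), whereas chromosome 21 (261 and 84) and chromosome 18 (68 and 195) kept theirs. In these bins the shared part was 39.9% in the resistant and 34.7% in the parental pair, a difference of 5.28 percentage points. The part of DNA amount in the single regions was not tested.

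**Figure D5:**
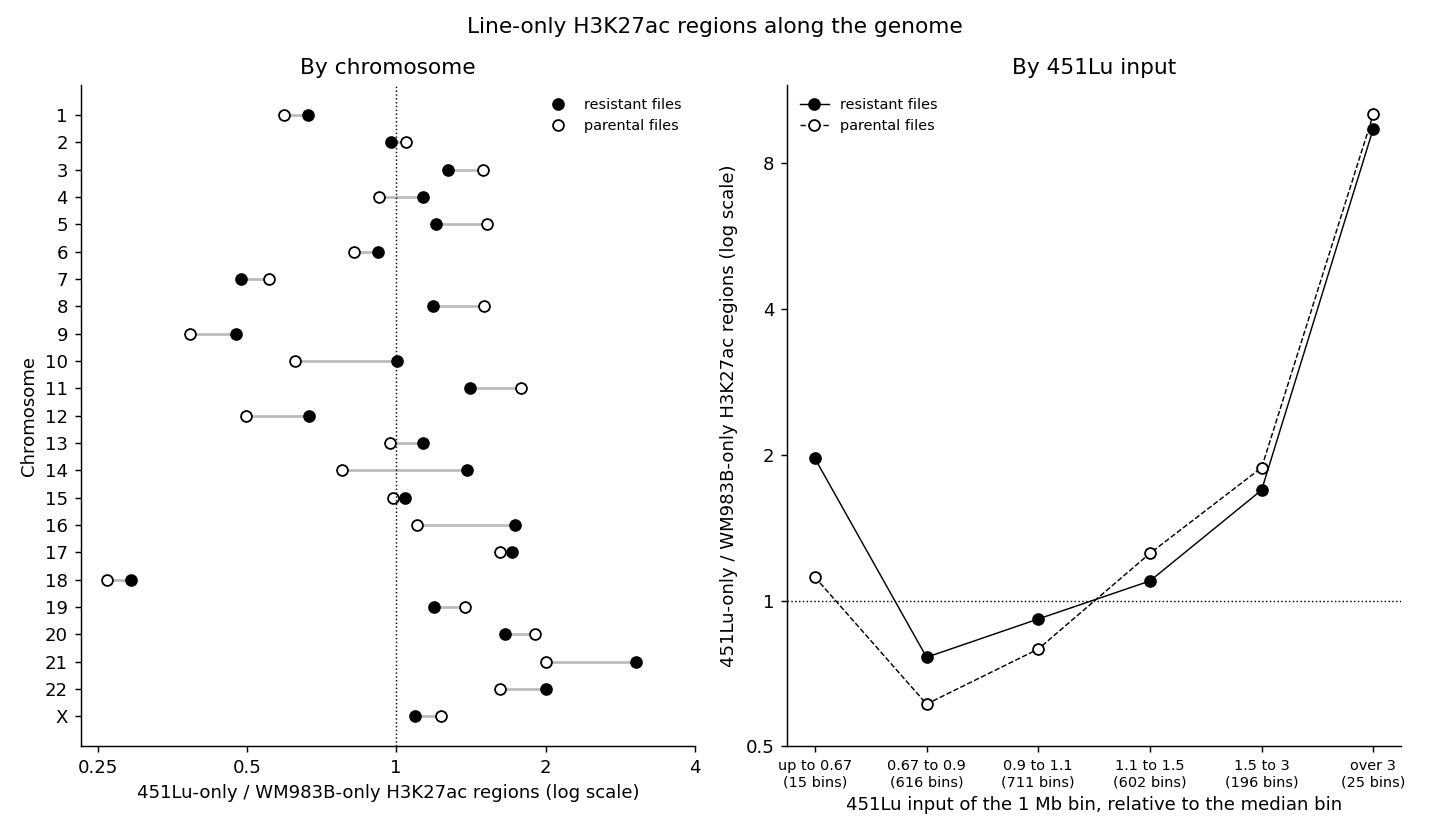
Number of 451Lu-only over WM983B-only H3K27ac regions (log scale) for resistant files (filled) and parental files (open), on the left for each chromosome and on the right for 1 Mb bins grouped by 451Lu input relative to the median bin, with the number of bins in brackets. In the resistant files the ratio lies between 0.291 (chromosome 18) and 3.04 (chromosome 21), and reaches 9.42 in the 25 bins with more than 3 times the median input.

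H3K9me3, measured in 451Lu only, lay over 451Lu-only regions more often than over the others, and this went with the bins of high input. An island covered 18.6% and 17.2% of 451Lu-only regions in resistant 451Lu, and 17.4% and 17.7% in parental 451Lu. It covered 9.37% and 8.52% of WM983B-only regions in resistant 451Lu and 10.5% and 10.7% in parental 451Lu, and 8.85% and 7.86% of shared regions in resistant 451Lu and 7.51% and 7.39% in parental 451Lu. The order of the classes was the same in the 4 libraries, with 451Lu-only regions at the top. In the 3 named bins of chromosome 3, islands covered 994.8 to 1000 kb of each 1 Mb. In bins above 3 times the median input, an island covered 97.6% and 97.5% of the 1121 451Lu-only regions in resistant 451Lu, against 95.1% and 95.7% in parental 451Lu. The other classes were also mostly covered in these bins. Of the 119 WM983B-only regions, 85.7% and 85.7% were covered in resistant 451Lu and 85.7% and 84.0% in parental 451Lu. Of the 315 shared regions, 92.4% and 88.6% were covered in resistant 451Lu and 88.3% and 85.4% in parental 451Lu. In bins at 0.67 to 1.5 times the median, the shares of 451Lu-only regions were 7.72% and 7.06% in resistant 451Lu and 9.30% and 9.63% in parental 451Lu, and those of WM983B-only regions 6.86% and 6.34% in resistant 451Lu and 9.76% and 10.3% in parental 451Lu. There 451Lu-only regions lay slightly above WM983B-only ones in the resistant libraries and below them in the parental libraries, while shared regions stayed lowest, between 4.47% and 5.84%. With islands at a deposited false discovery rate under 0.01 and a fold above 1, 451Lu-only regions had 8.75% and 8.67% in resistant 451Lu against 12.3% and 12.4% in parental 451Lu. WM983B-only regions then had 6.42% and 6.16% in resistant 451Lu against 9.34% and 9.63% in parental 451Lu. In bins above 3 times the median input, these islands covered far fewer of the 1121 451Lu-only regions than islands of any kind did. The shares there were 16.9% and 20.9% in resistant 451Lu and 41.7% and 42.4% in parental 451Lu. For the 119 WM983B-only regions of these bins they were 6.72% and 21.0% in resistant 451Lu and 41.2% and 46.2% in parental 451Lu. Over all bins, the excess at 451Lu-only regions was smaller with these islands, and the value of the parental libraries was the higher one in both classes. Shared regions moved the same way, with 4.47% and 4.38% in resistant against 6.09% and 6.21% in parental 451Lu. Islands of any kind also covered more of the genome in parental 451Lu, 327 and 337 Mb against 288 and 267 Mb in resistant 451Lu.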

How the data were processed

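Peaks of H3K27ac and ATAC-seq were deposited per library with a score from the authors' peak caller, whose scale is not given in the sources used here. H3K9me3 islands were deposited with a ChIP count, an input count, a p-value, a false discovery rate and a fold over input. Per the submitters' processing notes, hg19 was the build and the tools were deepTools, SICER, MACS2, STAR 2.5.3, Picard and Bowtie2, without roles. The score ranked and cut peaks within a list; scores of the same region in different files were normalized separately and are shown side by side only.

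Lists were cut to 36022 (resistant) or 32304 (parental, and all 4) peaks on chromosomes 1 to 22 and X, touching peaks were joined, and a region was called in a list that covered at least 1 bp (Python 3.11.15, numpy 2.4.6, pandas 2.3.3, scipy 1.17.1). The joining, overlap and cutting of peaks were checked against a base-by-base count on simulated peak lists, and the binomial intervals were not simulated. Input per kb of island was averaged over 1 Mb bins with at least 10 kb of islands. Regions named are the 5 best line-only ones per line that the other resistant full list lacks, the 5 shared ones with the best worse rank, the 3 best of each resistant-only kind, and the 3 widest domains and most unequal bins per line. The members and lists were chosen with earlier results of these data known. No label states that replicates are separate cultures.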

Additional observations from a re-analysis of the deposited data

Results flagged for a closer look

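The lines moved in opposite directions between states at the open regions of their own line. In 451Lu, the share of open regions particular to 451Lu with an H3K27ac peak was lower in resistant than in parental cells, a difference of -4.79 percentage points (3.76% in resistant and 8.55% in parental 451Lu). In WM983B, the share at open regions particular to WM983B was higher in resistant than in parental cells, a difference of 0.961 percentage points (6.07% in resistant and 5.11% in parental WM983B). The lines also moved in opposite directions at the open regions of the other line, with 1.27 percentage points in 451Lu at regions particular to WM983B and -1.16 in WM983B at regions particular to 451Lu. With 1 H3K27ac library per group, these differences between the lines were not tested.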

How the results depend on the processing

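The resistant pair shared more than the parental pair under each of the 10 alternatives, of which 7 were planned and the best 2000 peaks, the score limit of 5.5 and the bins of even 451Lu input were chosen after seeing the data, as were the window of 500 bp and the H3K9me3 shares by input. Its excess in shared regions was 7.70 percentage points with all 4 lists at the shortest length, 7.68 with the best 2000 peaks, 4.68 with scores of at least 5.5 and 5.28 in bins of even 451Lu input. Its excess in the Jaccard index was 0.0721, 0.0701, 0.0496 and 0.0527 in the same order, against 0.0603 as reported. Counts of 451Lu-only regions were 28371 with full lists and 27504 with scores of at least 3, and WM983B-only regions numbered 8207 with scores of at least 5.5, since lists then differ in length. Shorter lists gave 3732 451Lu-only, 3706 WM983B-only and 6251 shared regions (10000 peaks), or 738, 734 and 1262 (2000 peaks). Of 80 further values, 61 moved by more than their counting error. No paired analysis was possible because the 451Lu files carry number 1, the WM983B files carry number 2, and no test was run. Leaving out a replicate was not possible with 1 H3K27ac file per group, and gene starts were not run. Depth is unknown, so a peak missing from a list is not shown to be absent from the cells.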
